A study of Homo sapiens with 6 samples.

Results

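The histone genes described here are 9 genes listed as replication-independent, namely the core variants H2AZ1, H2AZ2, H2AX, MACROH2A1, MACROH2A2, H3-3A and H3-3B, the centromeric variant CENPA and the linker histone H1-10. They were taken by name from a fixed list, matched to the Ensembl gene IDs of the count tables, and make up 9 of 58302 IDs. All 9 were found and all 9 were tested. Gene expression was measured by poly(A)-selected bulk RNA sequencing in A375 cells, an established human melanoma line. The 3 empty vector libraries and the 3 HMGB2 overexpression libraries came from stable lines of this one cell line made by lentiviral transduction and drug selection, with no cloning step stated for them and no further treatment given in the labels. Reads of the vector and of the cells' own HMGB2 gene fall on the same row of the tables. The study calls the replicates of each group technical, so p-values measure the spread between samples of a line and not between independent transductions.

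Nucleosomes wrap DNA around a core of histones H2A, H2B, H3 and H4, and a linker histone of the H1 family binds where the DNA enters and leaves. Most core histones are made in S phase from clustered genes whose transcripts end in a stem-loop and lack a poly(A) tail. Most variant histones are instead made from single genes with polyadenylated transcripts, many of them through the cell cycle, and dedicated chaperones place them at chosen sites. HMGB2, the overexpressed protein, bends DNA and competes with linker histones for nucleosomal DNA, as is known for the HMGB family.

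Reads assigned to genes numbered between 45925053 and 56755212 per library. The overexpressed gene was checked first: normalized counts of HMGB2 averaged 7514 ± 243 under the empty vector and 15517 ± 1177 with overexpression (SD, n = 3 each), and its log2 fold change was 1.05 with a standard error (SE) of 0.10 (DESeq2 adjusted p = 4.4e-22). A normalized count is a read count divided by the size factor of its library, so each value is relative to the other genes of that library, and fewer cells with a transcript cannot be told apart from less transcript per cell. Of the 9 melanocyte lineage markers, SOX10 was listed at 0 in every library, 5 averaged at least 10 normalized counts and none of the 6 tested was called (0 at an unadjusted p under 0.05 and 0 with edgeR). Summed marker levels ranged from 4982 to 5242 normalized counts for melanocyte markers in empty vector libraries and from 5446 to 5805 in overexpression libraries. For fibroblast markers the ranges were 3068 to 5224 and 4606 to 6382, and for epithelial markers 15995 to 18414 and 16600 to 18708. For leukocyte markers, among which PTPRC was listed at 0, they were 495 to 524 and 534 to 705, and for endothelial markers 197 to 214 and 148 to 164. Of the endothelial markers 1 was called lower, and no fibroblast, epithelial or leukocyte marker was called by DESeq2 or edgeR (at an unadjusted p under 0.05, 2 fibroblast markers higher and 1 lower). The column of counts used loses reads shared with a gene on the opposite strand. It kept 3.37% of the reads that the stranded columns hold for PMEL, 1.82% for S100A1, 20.6% for KRT8 and 43.0% for KRT18. Counts and sums are therefore too low for such markers. For markers listed at 0, SOX10 and PTPRC, loss of this kind was not told apart from a lack of transcript. The part of these marker levels in the results on histone genes was not tested.

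H1-10, the linker histone, fell with HMGB2 overexpression, and it was the one gene of the 9 that passed the test. H3-3A and H3-3B, which encode the same H3.3 protein, lay apart in opposite directions in the libraries, H3-3A higher and H3-3B lower with overexpression, without passing the test. For the other 6 genes the groups overlapped, with log2 fold changes from -0.11 to 0.18. Over all 18836 genes tested, DESeq2 called 4.94% at an adjusted p under 0.05, with 2.29% higher and 2.64% lower. Of the 9 histone genes, 0 were called higher and 1 lower, both with DESeq2 and with edgeR, and at an unadjusted p under 0.05 there were 1 higher (H3-3A) and 2 lower (H3-3B and H1-10). Of the 18836 genes tested, 1315 were higher and 1377 lower at that unadjusted threshold. Their median log2 fold change was -0.08, against 0.0027 over all genes tested. The groups did not overlap for 3 of the 9 genes, where 22.8% of the 16692 genes averaging at least 10 normalized counts had no overlap.

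**Figure D1:**
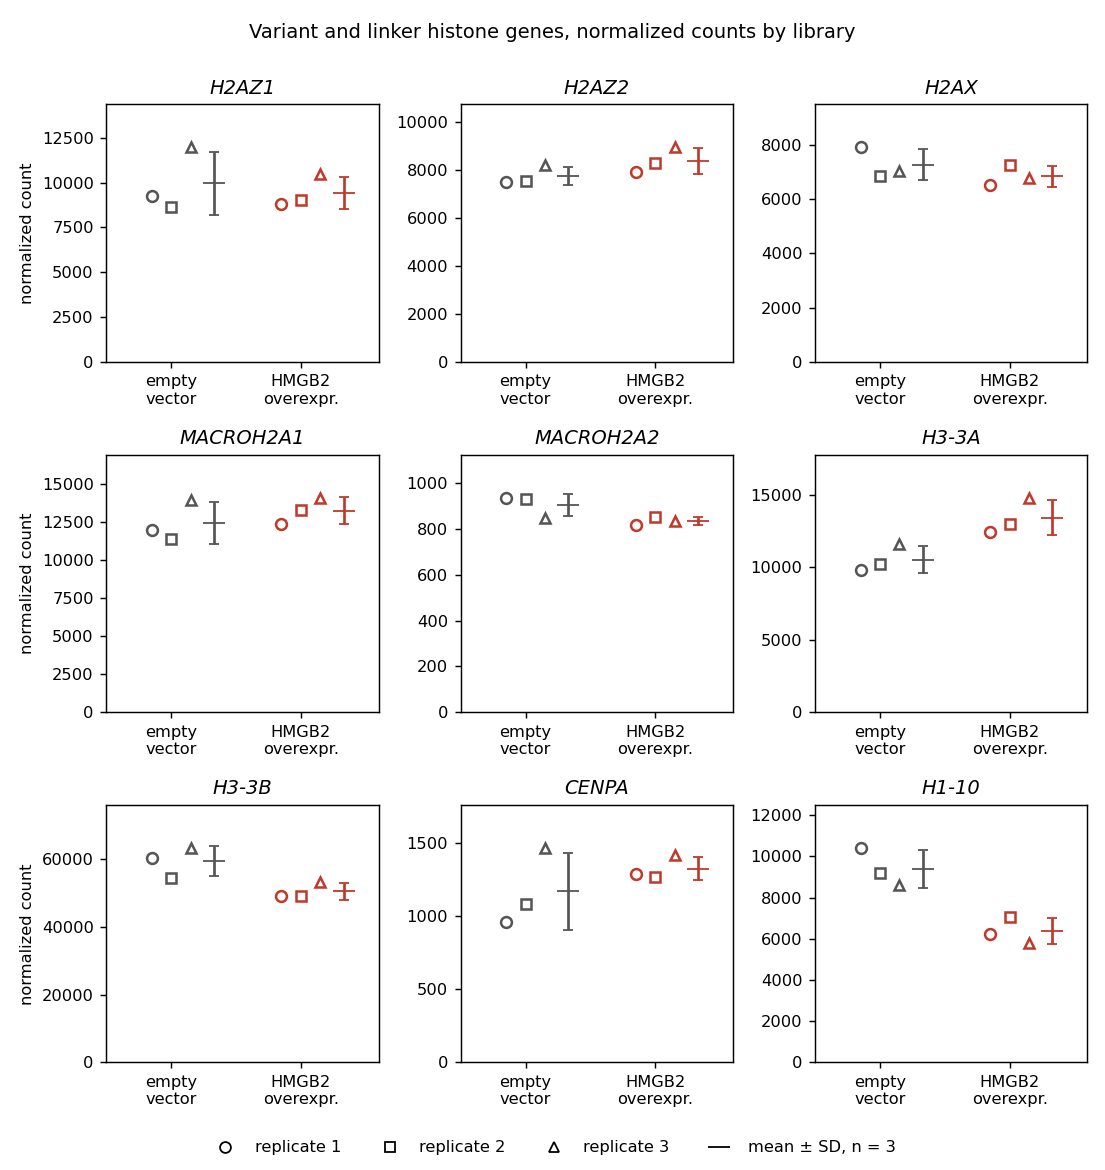
Normalized counts (vertical axes, from 0) of the 9 histone genes in each library, with symbols for the replicate number and the bar for the mean and SD of 3 libraries. The groups do not overlap for H3-3A, H3-3B and H1-10, and H1-10 lies between 8606 and 10399.9 with the empty vector and between 5807 and 7038 with HMGB2 overexpression.

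The upstream sequences of these 3 genes are shown because they are the ones whose libraries did not overlap. They come from the RefSeq promoter windows on GRCh38.p14, which hold the 250 bases before an annotated start. All 9 genes matched, with 13 windows in all. Each line gives the 240 bases that end 11 bases before the start, read 5′ to 3′ on the strand of the gene, and no exon of GENCODE 44 lies within them. Capitals mark matches, on either strand, to the 6 motifs searched, which were the CCAAT box (CCAAT), the TATA box (TATAAA), the GC box (GGGCGG), the cyclic AMP response element (TGACGTCA), the E2F site (TTTCCCGC) and the cell cycle homology region (TTTGAA).
H1-10, chr3:129316297-129316536, minus strand: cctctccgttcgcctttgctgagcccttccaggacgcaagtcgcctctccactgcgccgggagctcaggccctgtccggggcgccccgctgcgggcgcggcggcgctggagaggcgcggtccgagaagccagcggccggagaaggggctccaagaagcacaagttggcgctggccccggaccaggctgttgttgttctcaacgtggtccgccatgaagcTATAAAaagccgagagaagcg
H3-3A, chr1:226062466-226062705, plus strand: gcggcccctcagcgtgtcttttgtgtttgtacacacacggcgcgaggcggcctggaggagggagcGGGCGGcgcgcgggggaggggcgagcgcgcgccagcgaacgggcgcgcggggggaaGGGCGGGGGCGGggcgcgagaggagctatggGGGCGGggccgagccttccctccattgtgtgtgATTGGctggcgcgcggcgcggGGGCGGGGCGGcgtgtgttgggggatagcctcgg
H3-3B, chr17:75779790-75780029, minus strand: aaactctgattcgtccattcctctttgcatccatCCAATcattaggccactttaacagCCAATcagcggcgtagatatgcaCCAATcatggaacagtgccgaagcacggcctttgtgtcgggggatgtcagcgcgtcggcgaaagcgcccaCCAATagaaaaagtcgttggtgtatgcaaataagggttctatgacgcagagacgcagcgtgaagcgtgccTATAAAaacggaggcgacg
In the H1-10 window the TATA box begins 31 bases before the start, and it was the single match among these motifs. The H3-3B window held 4 CCAAT boxes, beginning 216, 192, 169 and 99 bases before the start, and a TATA box at 29 bases. RefSeq lists 4 starts for H3-3A, of which the last is shown. Its window held 6 GC boxes, some of them overlapping, and 1 CCAAT box read on the reverse strand as ATTGG, 65 bases before the start. Over all 35116 windows of 250 bases in the table, 32.0% held a CCAAT box, 10.7% a TATA box and 42.6% a GC box. The cell cycle homology region was found in 13.3%, the cyclic AMP response element in 1.65% and the E2F site in 1.39%. These shares are per window, while the counts that follow are per gene, over all windows of a gene, so the scales differ. Among the 9 histone genes, 7 had a CCAAT box in at least 1 window, all but H1-10 and MACROH2A2, and 4 had a TATA box (H2AZ1, H2AX, H3-3B and H1-10). The E2F site was found for CENPA alone, the cell cycle homology region for CENPA and H2AX, and the cyclic AMP response element for 0 of the 9. A match is a description of these letters and not of a bound site.

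H1-10 (ENSG00000184897; hg38 chromosome 3, 129314771 to 129316286, minus strand, a single exon) encodes H1.10, also called H1X, a linker histone made outside S phase. Its normalized counts were 10399.9, 9182 and 8606 for replicates 1, 2 and 3 of the empty vector group, and 6252, 7038 and 5807 for those of the overexpression group. Every overexpression library lay below every empty vector library. The mean went from 9396 ± 916 to 6366 ± 623 (SD, n = 3 each), and H1-10 fell by 0.56 on the log2 scale (SE 0.12, 95% interval -0.80 to -0.32, DESeq2 adjusted p = 0.000346). This is a fall of the mean by 32.2%. By adjusted p it ranked 281 of the 18836 genes tested. H1-10 was also called in each of the 14 alternative settings, with log2 fold changes from -0.64 to -0.49 and adjusted p from 3.09e-13 to 0.0336. An antisense gene, H1-10-AS1, overlaps it, and the column for either strand kept between 52.2% and 56.7% of the H1-10 reads that the stranded columns hold. H1-10-AS1 itself had between 22 and 40 counts per library. With the stranded columns summed, the log2 fold change of H1-10 was -0.51 (SE 0.11, DESeq2 adjusted p = 0.000266).

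H1-2, a replication-dependent linker histone named here after its values were seen, had 482, 552 and 373 normalized counts with the empty vector and 742, 773 and 994 with overexpression. It rose by 0.83 on the log2 scale (SE 0.18, DESeq2 adjusted p = 0.00037), with no overlap between the groups. The difference in change between H1-2 and H1-10 was not tested. Replication-dependent histone genes as a list held 16 genes called higher and 0 lower among 46 tested, with a median log2 fold change of 1.38. With edgeR 3 of them were called, all higher. Relative to the empty vector mean, the median of this list stood at 0.76, 0.47 and 2.02 on the log2 scale in overexpression replicates 1, 2 and 3, so that replicate 3 was the highest, as it was for multimapped reads (10.6%, against 2.58% to 4.89% in the other 5 libraries). Most transcripts of these genes carry no poly(A) tail, so that poly(A) selection removes most of them, and 4 list members (H2AC18, H2AC19, H3C2 and H3C3) had no matching ID.

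**Figure D2:**
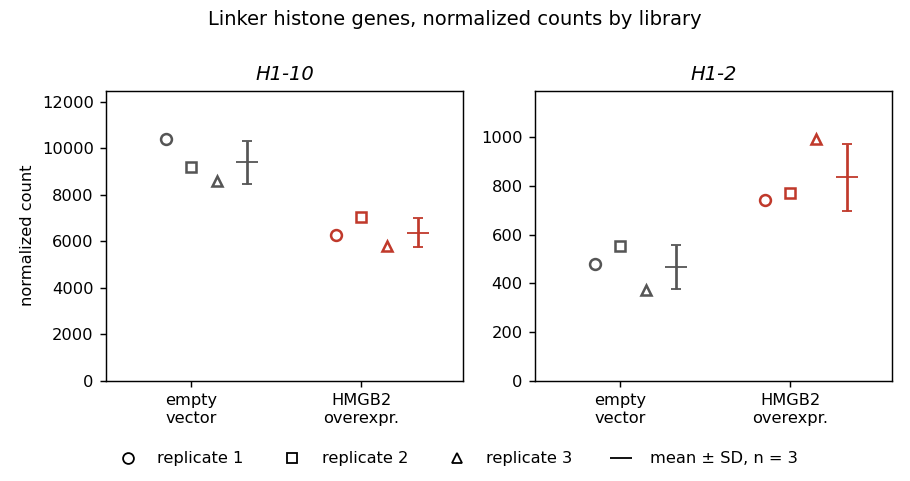
Normalized counts (vertical axes, from 0) of the linker histone genes H1-10 and H1-2 in each library, with symbols for the replicate number and the bar for the mean and SD of 3 libraries. H1-10 fell from 9396 to 6366, and H1-2 rose from 469 to 836.

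H3-3A and H3-3B encode one protein, H3.3, which HIRA places in active genes and DAXX with ATRX in repeats and at chromosome ends. H3-3A (ENSG00000163041; hg38 chromosome 1, 226061851 to 226072019, plus strand) had normalized counts of 9804, 10196 and 11612 for replicates 1, 2 and 3 of the empty vector group and of 12464, 13006 and 14807 for those with overexpression. The groups did not overlap, and replicate 3 was the highest library in both. The means were 10537 ± 951 and 13426 ± 1227 (SD, n = 3 each), a ratio of 1.27. DESeq2 gave a log2 fold change of 0.35 (SE 0.12, 95% interval 0.12 to 0.58, adjusted p = 0.0601), so H3-3A did not pass the threshold. Leaving out empty vector replicate 3 gave 0.43 (adjusted p = 0.000178), in a fit that called 1334 genes higher and 1520 lower over all genes. Leaving out any other library gave 0.27 to 0.40, without a call (DESeq2 adjusted p from 0.187 to 0.537), and with edgeR the adjusted p was 0.128.

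H3-3B (ENSG00000132475; hg38 chromosome 17, 75776434 to 75785893, minus strand) is expressed throughout the body like its partner gene. Its normalized counts were 60351, 54565 and 63264 with the empty vector and 49065, 49114 and 53245 with overexpression. The highest overexpression library lay below the lowest empty vector library. With means of 59393 ± 4428 and 50474 ± 2399 (SD, n = 3 each), the ratio was 0.850 and the log2 fold change -0.23 (SE 0.10, 95% interval -0.43 to -0.03, DESeq2 adjusted p = 0.215). H3-3B did not pass the threshold either.

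Both H3.3 genes passed it in fits that set the replicates numbered 3 apart. The labels name no batch, and the grouping of these libraries rests on their counts. With a term for the third replicates, H3-3A had a log2 fold change of 0.35 (SE 0.06, adjusted p = 3.57e-08) and H3-3B one of -0.23 (SE 0.06, adjusted p = 0.000828). In replicates 1 and 2 alone, the adjusted p of DESeq2 was 4.8e-07 for H3-3A and 0.00365 for H3-3B, where 1203 genes were called higher and 1418 lower over all genes. With the term for the third replicates 17.3% of 15777 genes were called, and of the 9 histone genes 1 was called higher (H3-3A) and 2 lower (H3-3B and H1-10).

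**Figure D3:**
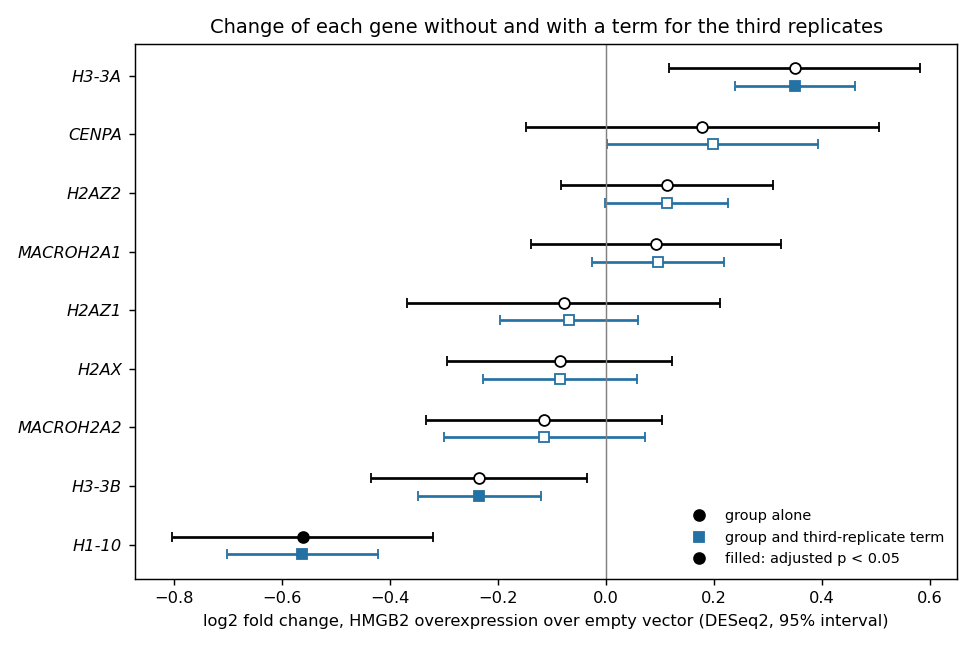
Log2 fold changes of the 9 histone genes with HMGB2 overexpression over empty vector (horizontal axis) with 95% intervals from DESeq2, for the fit on the group alone (circles) and with a term for the third replicates (squares), filled where the adjusted p is under 0.05. H1-10 is filled in both fits, and H3-3A and H3-3B only with the term.

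The balance of the H3.3 pair was compared per library, on levels per length of merged exons. H3-3A made up 20.7%, 23.1% and 22.7% of the sum of H3-3A and H3-3B across the empty vector replicates, and 28.9%, 29.8% and 30.8% across the overexpression replicates. The mean share was 22.2 ± 1.3% with the empty vector and 29.9 ± 0.95% with overexpression (SD, n = 3 each), higher by 7.71 percentage points and in 3 of 3 overexpression libraries. The exact two-sided permutation test gave p = 0.1, the smallest it can give with 3 libraries against 3, and p = 0.3 after Benjamini-Hochberg adjustment over the 3 pairs compared. Every overexpression library had a higher normalized count of H3-3A and a lower one of H3-3B than every empty vector library, as given above. The separation of the shares and the p of 0.1 follow from those counts and are no further evidence. The sum of the pair was 246 ± 15.5 RPKM (reads per kilobase of exon, scaled to the reads assigned in each library) with the empty vector and 231 ± 10.2 RPKM with overexpression, with overlap between the groups (exact permutation p = 0.2). The size of the share rests on the length used: with the canonical transcript of each gene, an alternative added after the data were seen, it was 31.0 ± 1.61% and 40.2 ± 1.09%.

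**Figure D4:**
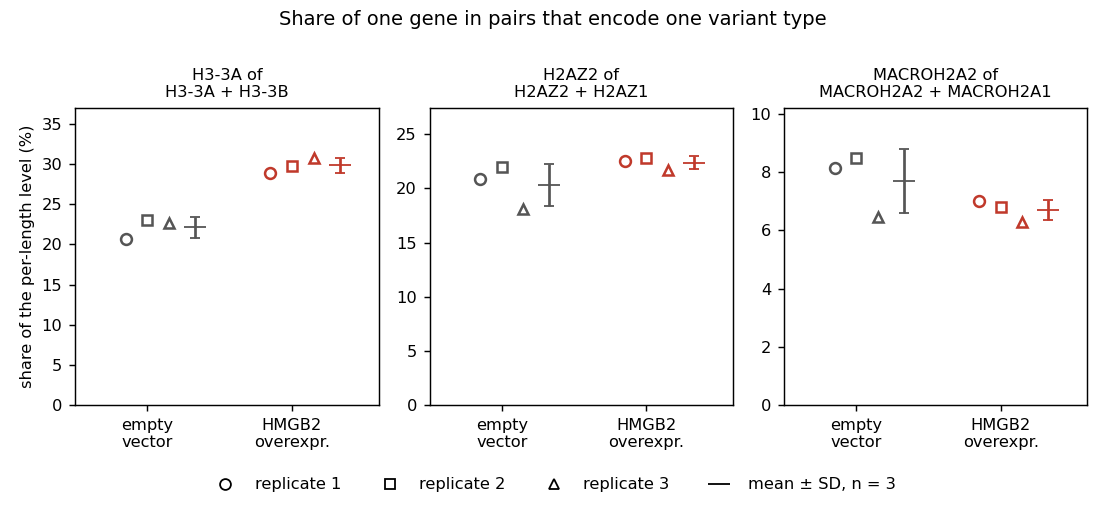
Share of H3-3A, H2AZ2 and MACROH2A2 in the per-length level of each gene pair (vertical axes in percent, from 0) in each library, with symbols for the replicate number and the bar for the mean and SD of 3 libraries. The H3-3A share lies between 20.7% and 23.1% with the empty vector and between 28.9% and 30.8% with overexpression, and the groups overlap for the other pairs.

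Reads of H3-3A are hard to place. Of 1021 words of 50 bases in its canonical transcript, 742 (72.7%) also occur in other genes, against 8.28% for H3-3B, and reads that fit several places are counted for no gene. The words are shared with 13 other genes, among them processed pseudogenes. Among those with counts, H3P6 shared the most words, and it is named here after its values were seen. H3P6 had normalized counts of 1127, 1329 and 1432 with the empty vector and of 1679.5, 1630.1 and 2038 with overexpression. It rose by 0.46 on the log2 scale (SE 0.14, DESeq2 adjusted p = 0.0318). Reads of H3P6 and H3-3A that cover shared words cannot be told apart. H3-3A and H3P6 together had 11833 ± 1089 normalized counts in empty vector and 15209 ± 1439 in overexpression libraries (SD, n = 3 each), again with no overlap. The multimapped share of reads was 2.58%, 3.26% and 3.96% across the empty vector replicates and 4.89%, 3.32% and 10.6% across the overexpression replicates. Their part in the H3-3A values was not tested.

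H2A.Z, which marks promoters and enhancers, is encoded by H2AZ1 and H2AZ2, whose proteins differ by a few residues. H2AZ1 (ENSG00000164032; hg38 chromosome 4, 99948086 to 99950355, minus strand) had normalized counts of 9246, 8649 and 11969 with the empty vector and of 8780.1, 9049 and 10458 with overexpression. Empty vector replicate 3 was the highest library, and the overexpression libraries lay within the empty vector range. The log2 fold change of H2AZ1 was -0.08 (SE 0.15, 95% interval -0.37 to 0.21, DESeq2 adjusted p = 0.9), and it was 0.076 without empty vector replicate 3. H2AZ1 kept between 30.3% and 33.5% of its stranded reads in the column for either strand, and the antisense gene H2AZ1-DT, which overlaps it, had at most 6 counts. H2AZ2 (ENSG00000105968; hg38 chromosome 7, 44826791 to 44848087, minus strand) had 7512, 7527 and 8186 normalized counts with the empty vector and 7901, 8273 and 8943 with overexpression, and its log2 fold change was 0.11 (SE 0.10, 95% interval -0.08 to 0.31, DESeq2 adjusted p = 0.721). H2AZ2 made up 20.3 ± 1.98% of the pair with the empty vector and 22.4 ± 0.604% with overexpression (SD, n = 3 each), which overlapped (exact permutation p = 0.2, adjusted p = 0.3). This share depends on the count column: with the stranded columns summed, H2AZ2 made up 7.72 ± 0.711% and 8.27 ± 0.366% of the pair (SD, n = 3 each), a difference of 0.545 percentage points in place of 2.05 (exact permutation p = 0.5), and without empty vector replicate 3 the difference was 0.958 points.

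H2AX (ENSG00000188486; hg38 chromosome 11, 119093874 to 119095465, minus strand), the variant that is phosphorylated beside DNA breaks, had normalized counts of 7922, 6871 and 7039 in the empty vector replicates and of 6518, 7279 and 6781 in the overexpression replicates. The groups overlapped, and the log2 fold change was -0.09 (SE 0.11, 95% interval -0.29 to 0.12, DESeq2 adjusted p = 0.83). MACROH2A1 and MACROH2A2 encode H2A variants with a large macro domain, known from the inactive X chromosome and silent genes. MACROH2A1 (ENSG00000113648; hg38 chromosome 5, 135334381 to 135399914, minus strand) had 11964, 11346 and 13941 normalized counts with the empty vector and 12352, 13281 and 14089 with overexpression, and its log2 fold change was 0.09 (SE 0.12, 95% interval -0.14 to 0.32, DESeq2 adjusted p = 0.834). It kept between 76.0% and 76.8% of its stranded reads, and PITX1-AS1 overlaps it on the other strand. MACROH2A2 (ENSG00000099284; hg38 chromosome 10, 70052544 to 70112282, plus strand) had 936, 929 and 848 normalized counts with the empty vector and 818, 854 and 835 with overexpression. Its log2 fold change was -0.11 (SE 0.11, 95% interval -0.33 to 0.10, DESeq2 adjusted p = 0.754). MACROH2A2 made up 7.71 ± 1.1% of the macroH2A pair with the empty vector and 6.70 ± 0.357% with overexpression (SD, n = 3 each), with overlap (exact permutation p = 0.3, adjusted p = 0.3). On the longest transcript of each gene the shares were 17.2 ± 2.22% and 15.2 ± 0.737% (SD, n = 3 each), a difference of -2.03 percentage points in place of -1.01 (exact permutation p = 0.3). The difference was -0.608 without empty vector replicate 2 and -1.63 without empty vector replicate 3.

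CENPA (ENSG00000115163; hg38 chromosome 2, 26764289 to 26801067, plus strand), the H3 variant that marks centromeres, had normalized counts of 962, 1085 and 1468 for replicates 1, 2 and 3 of the empty vector group and of 1292, 1269.6 and 1417 for those with overexpression. Empty vector replicate 3 was the highest of all 6 libraries, while the other two of its group were the lowest. The log2 fold change was 0.18 (SE 0.17, 95% interval -0.15 to 0.51, DESeq2 adjusted p = 0.74). Without empty vector replicate 3 it was 0.37 (adjusted p = 0.01), and in replicates 1 and 2 alone 0.32 (adjusted p = 0.0208). CENPA was called in these 2 of 14 alternatives, both of which lack that library. Calls over all genes also rose in them, from 432 higher and 498 lower with all 6 libraries. They were 1334 and 1520 without empty vector replicate 3, and 1203 and 1418 in replicates 1 and 2 alone. CENPA peaks in G2, and of 24 genes of G2 and mitosis 3 were called higher and 0 lower with DESeq2 (2 and 0 with edgeR, 7 and 0 at an unadjusted p under 0.05, and 14 and 0 with the term for the third replicates), with a median log2 fold change of 0.19. Of 24 S phase genes 0 were called higher and 1 lower, the same numbers with edgeR and at an unadjusted p under 0.05 but 3 and 2 with the third-replicate term, with a median of 0.02. The part of the cell cycle in these levels was not tested.

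Levels were compared between the 9 genes per length of merged exons, in the column for either strand. With poly(A) selection, any transcripts of these genes without a poly(A) tail are largely missing from the levels. H3-3B stood highest, at 177 RPKM over the 6 libraries (159 to 201), followed by H1-10 at 103 (74.1 to 137), H2AX at 87.8 (81.3 to 99.3), H2AZ1 at 84.3 (75.8 to 103) and H3-3A at 61.8 (51.1 to 74.9). H2AZ2 at 22.7 RPKM (21.4 to 24.7), MACROH2A1 at 14.9 (13.3 to 16.02), CENPA at 12.6 (9.85 to 14.7) and MACROH2A2 at 1.15 (1.08 to 1.25) were lower. H1-10 lay above H2AX in 5 of 6 libraries, with separate ranges in the empty vector group and overlapping ones with overexpression. The ranges of H2AX and H2AZ1 overlapped in both groups, with H2AX higher in 4 of 6 libraries. This column kept between 30.3% and 33.5% of the stranded reads of H2AZ1 and 100% of those of H2AX, so it cannot rank the pair. MACROH2A1 lay above CENPA in 6 of 6 libraries, although their ranges overlapped in the empty vector group. H1-10 fell from 123 ± 13.2 to 82.9 ± 9.35 RPKM (SD, n = 3 each). In this column it lay above all H2AX and H2AZ1 libraries with the empty vector and overlapped them with overexpression. With the stranded columns summed over the same exons, H1-10 averaged 165 RPKM over the 6 libraries, between H2AX at 76.1 and H2AZ1 at 228. The order depends on the count column, as H3-3B averaged 154 RPKM with the stranded columns summed over merged exons, below H2AZ1 and H1-10. It also depends on the length taken. With the canonical transcript and the column for either strand, H3-3A (221 RPKM) and H2AZ1 (221) came next after H3-3B (401). MACROH2A1 (132) then stood above H1-10 (103), and MACROH2A2 (8.90) remained last. With the stranded columns summed as well, H2AZ1 came first at 597 RPKM, above H3-3B at 350.3.

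The genes that place, remove or read these variants were taken as 7 lists. Of 114 genes, 103 were tested, of which 1 was called higher and 0 lower, with a median log2 fold change of 0.011. At an unadjusted p under 0.05 there were 6 higher and 2 lower, and edgeR called 0 in either direction. Among all 18836 genes tested, 1315 were higher and 1377 lower at that unadjusted threshold. RBBP4, a histone-binding protein of the Mis18 pathway that is also part of CAF-1 and several deacetylase complexes, was the gene called. RBBP4 had normalized counts of 5392, 6021 and 6410.2 with the empty vector and of 7200.5, 7370.4 and 7932 with overexpression, and rose by 0.34 on the log2 scale (SE 0.11, DESeq2 adjusted p = 0.0432). It was no longer called with edgeR (adjusted p = 0.11), without the independent filter (adjusted p = 0.0751) and when any library but empty vector replicate 3 was left out (adjusted p from 0.235 to 0.533). The other 21 genes of the 22 for CENP-A loading and the inner kinetochore, among them the CENP-A chaperone HJURP, were not called.

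No gene of the 26 tested for exchange of H2A.Z was called (median log2 fold change 0.02). The gene with the largest mean count of this list, RUVBL2, is an ATPase of the exchange complexes and stood at -0.15 on the log2 scale (SE 0.10, DESeq2 adjusted p = 0.542). For deposition of H3.3, 0 of 11 were called (median 0.0061). DEK, with the largest mean count of them, stood at 0.14 on the log2 scale and was not called (SE 0.10, DESeq2 adjusted p = 0.585). For H2AX damage signalling 0 of 19 were called (median 0.05), with PRKDC, the DNA-dependent protein kinase, at -0.09 (SE 0.12, adjusted p = 0.831). General histone chaperones had 0 of 13 called (median -0.04), with NPM1, a chaperone of the nucleolus, at 0.06 (SE 0.11, adjusted p = 0.899). For processing of histone mRNA 0 of 10 were called (median -0.07), with the 3′ end nuclease CPSF3 at -0.06 (SE 0.11, adjusted p = 0.898). Of 11 further variant and linker histones, 2 were tested and 0 called (median -0.21), and 6, among them the germline variants H2AB1, H2AB2, H2AB3 and H1-8, were listed at 0 in every library. H2AJ, with the largest mean count of them, stood at -0.13 on the log2 scale (SE 0.14, DESeq2 adjusted p = 0.788). At an unadjusted p under 0.05, 2 genes for exchange of H2A.Z and 1 general chaperone were higher, 1 gene for exchange of H2A.Z and 1 for processing of histone mRNA were lower, and none of the lists for H3.3 deposition, H2AX signalling and further variants held any.

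The genes whose levels ran most like each histone gene over the 6 libraries were found by Pearson's r of log2(normalized count + 1) among the 12134 genes that averaged at least 100 normalized counts. The values share library and group, and r is a description. Nearest to H1-10 were IL11, SNX8 and CRY2. For H3-3A they were RPL17P7, TUBA1A and ICMT, and for H3-3B VARS2, SQSTM1 and PSMD8. H2AZ1 ran most like RAB28, C9orf40 and CENPM, H2AZ2 like CSTF3, ARPC4 and UNG, and H2AX like IPO13, RPS6KA1 and CAVIN3. Nearest to MACROH2A1 were SCFD2, NUDT16L1 and SELENOM, to MACROH2A2 KIF1A, CYB5RL and CAPG, and to CENPA SGK1, NEDD8 and YAF2. Over these 27 genes r lay between 0.963 and 0.999. Between 11 genes (for H2AX) and 301 genes (for H3-3A) had an r above 0.95, so with 6 libraries many genes share a profile.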

How the data were processed

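RNA was measured in 6 libraries. The authors used bcl2fastq 2.20, FastQC, Trimmomatic and STAR on GRCh38, per the labels, and deposited raw read counts per gene, with 4 summary lines left out here. The annotation release and version of STAR are not given in the sources used here. Reads that map to several places or genes are not counted. The column for either strand was used, and reads shared with a gene on the opposite strand are lost in it. Of 58302 IDs, 57532 matched GENCODE 44.

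With default settings, as in the study's methods, and group as the sole term, chosen here, DESeq2 1.42.0 (R 4.3.3) tested 18836 of 32925 genes with a count, at a Benjamini-Hochberg adjusted p under 0.05. Fold changes are unshrunken. RPKM was computed here from merged exons. Values per library were compared by exact two-sided permutation, with a smallest p of 0.1. Alternatives were edgeR 4.0.16, TMM factors, 2 filters, summed stranded columns, a replicate block, a term for the third replicates, replicates 1 and 2 alone, leaving out each library, and other lengths. Scripts were tested on simulated data. Depth was between 45925053 and 56755212 assigned reads.

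The genes and lists were chosen with earlier results of these data known. Named are the 9 genes, HMGB2, the called genes of a pathway list (at most the 4 with the lowest adjusted p in each direction) or else the gene with its largest mean count, and the 3 genes most like each histone gene. The batch term was chosen in view of these counts. A gene of one list is not reported here and was left out of that list.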

Additional observations from a re-analysis of the deposited data

Results flagged for a closer look

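Multimapped reads, left out of every gene's count, were 4.89% of all reads in HMGB2 overexpression replicate 1 and 10.6% in replicate 3, above the highest empty vector library (3.96%). Overexpression replicate 2 had 3.32%.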

How the results depend on the processing

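H1-10 and HMGB2 kept their direction and stayed past the threshold in all 14 alternatives. H2AZ1 changed sign without empty vector replicate 3 (log2 fold change 0.0758, adjusted p = 0.665) and lay between -0.1722 and 0.0758 when libraries were left out one at a time. Called higher and lower over all genes were 432 and 498, against 215 and 255 with edgeR, 1374 and 1359 with the third-replicate term, 1203 and 1418 from replicates 1 and 2 alone, and between 155 and 1334 and between 208 and 1520 when libraries were left out one at a time. Histone genes called higher and lower were 0 and 1, against 1 and 2 with the third-replicate term, 2 and 2 in replicates 1 and 2 alone, and between 0 and 2 higher with 1 lower when libraries were left out. The number of genes tested differed between fits. Over all genes, 4.94% of 18836 were called with the group alone and 17.3% of 15777 with the third-replicate term. Pathway genes called were 1 and 0, against 0 higher with edgeR and 0 higher without the independent filter, 7 and 1 with the third-replicate term, 7 and 8 in replicates 1 and 2 alone, and between 0 and 10 higher and 0 and 6 lower when libraries were left out, the highest numbers being those without empty vector replicate 3. H3P6 lost its call in 7 of 14 alternatives. The difference in H3-3A share was 9.20 points with canonical transcript lengths. The cause of these moves was not tested.

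With the replicate number as a block, 886 and 940 genes were called, 1 and 2 histone genes, 4 and 1 pathway genes. The adjusted p was 8.85e-06 for H3-3A and 0.00702 for H3-3B. Deviations of libraries with the same number correlated at 0.091, 0.142 and 0.349, and those with other numbers between -0.27 and 0.21, so the numbers were not taken to pair the samples, and empty vector replicate 1 correlated best with overexpression replicate 2. Depth did not limit the counts of these genes, which were 742 or more in every library, while 3 samples a group limit the tests.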
